A study of Caenorhabditis elegans with 2 samples.

Results

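Nuclear hormone receptor genes other than nhr-41 were examined as possible sites of NHR-41 itself. They were chosen by name alone, as the protein-coding genes whose names start with nhr-, without nhr-41, plus daf-12, unc-55, odr-7, sex-1 and fax-1. The Ensembl annotation of the assembly WBcel235 holds 273 of them among 19973 protein-coding genes. The study profiled NHR-41 by chromatin immunoprecipitation and sequencing (ChIP-seq) in whole Caenorhabditis elegans at the L4 stage, the last larval stage. All animals were of the strain RW12221, in which a TY1, EGFP and 3xFLAG tag had been inserted by CRISPR at the nhr-41 gene itself on chromosome IV, and chromatin was recovered with an antibody against GFP. Larvae were synchronised as starved L1 after bleaching and were collected at 48.5 h. There was 1 group of 2 biological replicates, and no untagged or untreated group, so no test between groups was possible and the values are counts, levels and their spread. Whole animals were used, so a site in few cells and a weak site in many cells cannot be told apart. Read depth was unknown, because peak lists carry no read totals.

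Nuclear hormone receptors are transcription factors with a zinc-finger domain that binds DNA and, in most members, a domain that can hold a small lipophilic ligand. They typically recognise short core sites such as AGGTCA, singly or as repeats. Nematodes carry a greatly expanded family, most of it descended from a receptor related to vertebrate HNF4, and a smaller number of receptors with clear relatives in insects and vertebrates. In worms they direct fat, sterol and vitamin-linked metabolism, moulting, dauer entry, detoxification and the identity of some neurons. Receptors that act on the genes of other receptors are a known feature of moulting and metamorphosis cascades in insects, where NHR-41 has relatives.

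A summit, the highest point of a peak, in the promoter of a receptor gene was rare in the authors' conservative list, which holds the peaks that passed their cut on rank stability between peak sets. That list had 1069 peaks. Promoters began 1000 bp before an annotated transcript 5' end and stopped 200 bp after it. The list had a promoter summit at 6 of the 273 receptor genes, 2.20%, beside 2.68% of all protein-coding genes. The share at receptor genes is thus near that of all genes. The 6 were nhr-68, nhr-69, nhr-35, nhr-256, nhr-255 and nhr-193. The promoter of the tagged gene nhr-41, which is not counted among them, also held a conservative peak (signal 94.0).

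The 151 bases centred on the summit are shown for 4 of these promoters, because they are the sites that the conservative list places at receptor genes. The windows at nhr-69 and nhr-35 are not shown. Sequences are 5' to 3' on the plus strand, which is also the strand of these 4 genes, from the RefSeq sequence of WBcel235, which has the same coordinates as the ce11 build of the peak lists. In nhr-68 and nhr-256, capitals mark matches on either strand to the letters AGTTCA, to TGATAA, which GATA factors bind, or to the repeat GAGAGA. In nhr-255 and nhr-193, capitals mark bases of an annotated tRNA gene.
nhr-68, V:11572944-11573094, plus strand: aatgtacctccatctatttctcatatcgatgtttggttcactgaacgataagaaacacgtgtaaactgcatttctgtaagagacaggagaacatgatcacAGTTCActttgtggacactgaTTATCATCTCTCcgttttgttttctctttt
nhr-256, V:1743594-1743744, plus strand: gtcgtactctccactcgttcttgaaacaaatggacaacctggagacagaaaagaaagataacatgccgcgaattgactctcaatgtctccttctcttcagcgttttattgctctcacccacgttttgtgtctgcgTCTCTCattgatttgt
nhr-255, X:15742015-15742165, plus strand: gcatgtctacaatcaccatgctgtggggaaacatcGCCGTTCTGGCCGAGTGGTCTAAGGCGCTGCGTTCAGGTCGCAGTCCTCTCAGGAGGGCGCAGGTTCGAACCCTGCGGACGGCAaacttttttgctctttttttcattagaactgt
nhr-193, V:16341811-16341961, plus strand: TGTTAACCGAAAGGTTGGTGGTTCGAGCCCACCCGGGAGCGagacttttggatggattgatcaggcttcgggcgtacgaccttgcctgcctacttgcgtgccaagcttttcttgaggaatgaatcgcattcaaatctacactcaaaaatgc

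The nhr-255 summit lay inside a tRNA gene that spans X 15742050 to 15742133, and the central 51 bases of that window occurred 2 times in the genome. The nhr-193 window took in the end of a tRNA gene at V 16341779 to 16341851. The windows of nhr-68 and nhr-256 held no tRNA gene, and the central 51 bases of each occurred 1 time. Without peaks within 500 bp of a tRNA, snRNA or snoRNA gene, the promoters of 4 receptor genes stayed bound, nhr-68, nhr-69, nhr-35 and nhr-256 (1.47%), beside 2.18% of all genes.

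The strongest of the receptor promoters was that of nhr-68, which acts with nhr-10 to switch on the propionate breakdown genes used when vitamin B12 is scarce. Its peak at V 11572877 to 11573160 had a signal, the value the authors' peak caller gave each peak, of 115 and stood at place 155 among the 1069 conservative peaks. Signal in the ranked list of replicate 1 was 49.2 and in that of replicate 2 was 60.9, a mean of 55.1 ± 8.25 (SD, n = 2). The summit lay in intergenic sequence, 421 bp before a 5' end of nhr-68 and 29 bp from a 5' end of its neighbour H12C20.7, so the peak was shared by both promoters. If each summit was given to the nearest 5' end, nhr-68 lost its peak and 5 receptor genes stayed bound (1.83%), beside 2.17% of all genes. It was also the 1 receptor promoter found in the thresholded list of replicate 1 alone and in that of replicate 2 alone.

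The nhr-69 gene, another receptor related to HNF4, carried a peak at I 9882113 to 9882396 with a signal of 64.0. Replicate 1 gave 30.3 and replicate 2 gave 39.1, a mean of 34.7 ± 6.22 (SD, n = 2). The summit was 751 bp upstream, in intergenic sequence, and fell outside a promoter of 500 bp. The nearest receptor gene, nhr-49, lies 4.50 kb from nhr-69, measured between the gene ends, and had a promoter peak of its own below the authors' cut. A further conservative summit lay 1.46 kb from that of nhr-69.

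The remaining 4 bound genes are receptors to which no role is assigned here. At nhr-35 the peak had a signal of 74.9, with 27.6 in replicate 1 and 42.8 in replicate 2 (35.2 ± 10.7, SD, n = 2), the widest spread of the 6. At nhr-256 the peak at V 1743527 to 1743810 had a signal of 79.9, with 37.8 in replicate 1 and 31.8 in replicate 2 (34.8 ± 4.18, SD, n = 2). Its summit, 102 bp before a 5' end, was the closest of the 6 to its gene. At nhr-255 the replicates were the most alike, with 39.0 and 40.0 (39.5 ± 0.754, SD, n = 2) for a peak of 76.3 at X 15741948 to 15742231, 520 bp upstream. At nhr-193 they were 32.6 and 30.5 (31.6 ± 1.50, SD, n = 2) for a peak of 63.1 at V 16341744 to 16342027, 422 bp upstream. Replicate 2 was the higher at 4 of the 6 promoters. The lowest value at nhr-68, 49.2, was above the highest value of any other bound receptor promoter, 42.8 at nhr-35.

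**Figure D1:**
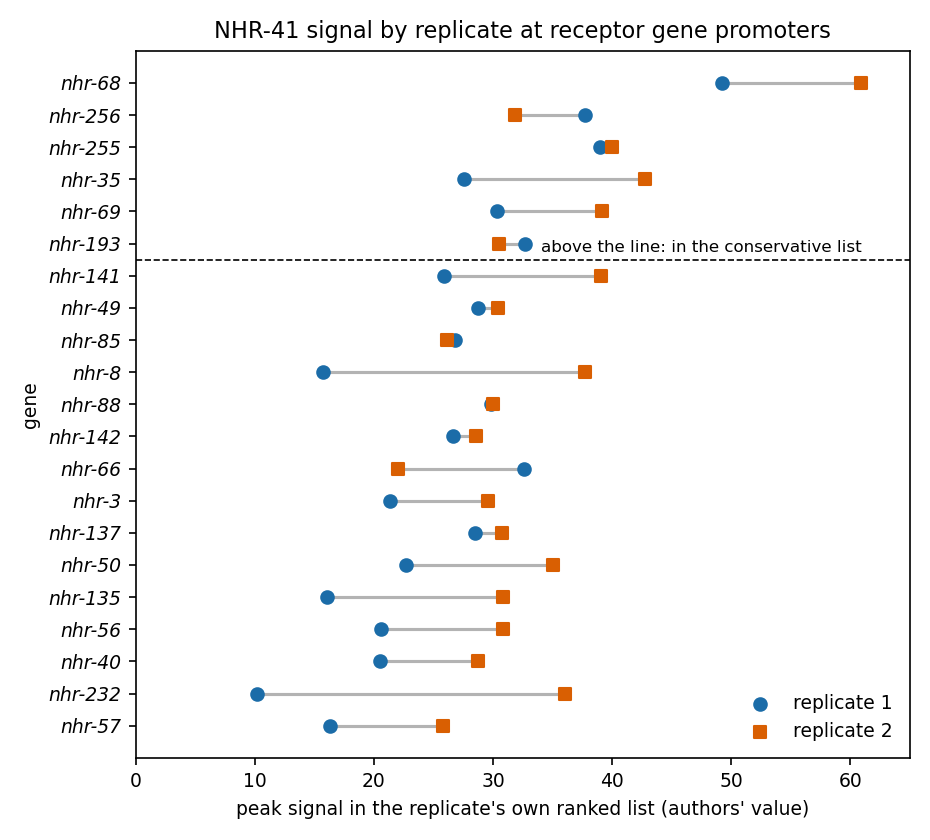
Peak signal in the ranked list of replicate 1 (circles) and of replicate 2 (squares) at the 6 receptor promoters of the conservative list and, below the dashed line, at the 15 next strongest, in order of combined signal. Both values at nhr-68 (49.2 and 60.9) lie to the right of all others shown. Replicate 2 was the higher at 13 of the 15 promoters below the line, a count not made for all genes.

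The number of bound receptor genes depended on the peak list. Each replicate's own thresholded list had a promoter summit at 1 receptor gene, nhr-68, which is 0.366%, beside 0.871% of all genes for replicate 1 (347 peaks) and 1.81% for replicate 2 (676 peaks). The other thresholded list made from both replicates (1136 peaks) had 5, all of the 6 but nhr-193, beside 2.8% of all genes. Peaks in the conservative list with the top score of 1000 gave 2, nhr-68 and nhr-255 (0.733%), beside 1.94% of all genes. The lists of single replicates hold fewer peaks than the conservative list.

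Just outside the cut stood nhr-141. The authors' score is based on the irreproducible discovery rate (IDR), which falls as a peak keeps its rank between peak sets, and the lowest score in the conservative list was 830, which the usual scaling of that score sets at an IDR of 0.01. Inside the cut, nhr-193 scored 844 with a signal of 63.1. Outside it, nhr-141 scored 815 with a higher signal of 68.0. Its values were 25.9 in replicate 1 and 39.1 in replicate 2 (32.5 ± 9.30, SD, n = 2). The window at nhr-141 is shown because it begins and ends with the same 28 bases, in capitals here, which occurred 43 times in the genome.
nhr-141, V:7443665-7443815, plus strand: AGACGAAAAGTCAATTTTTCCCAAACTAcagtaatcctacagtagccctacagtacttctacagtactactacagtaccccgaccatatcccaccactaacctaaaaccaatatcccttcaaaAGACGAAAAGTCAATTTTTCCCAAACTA

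Below the cut, 7 receptor genes had a strongest promoter peak with a score of at least 540 and under 830, which reaches to an IDR of 0.05. They were nhr-141, nhr-88, nhr-137, nhr-49, nhr-142, nhr-50 and nhr-85. That is 5.88% of the receptor genes with any ranked promoter peak, beside 3.53% of all genes with one. Of these, nhr-49 governs fatty acid desaturation, beta-oxidation and the fasting response. Its peak had a score of 753 and a signal of 62.1, with 28.7 in replicate 1 and 30.4 in replicate 2 (29.6 ± 1.19, SD, n = 2). The nhr-49 gene has 6 annotated 5' ends. Its promoters held 6 ranked peaks, the most ranked peaks of any receptor gene. The nhr-85 gene, the relative of insect E75 and vertebrate Rev-erb, had a peak in its own intron, 938 bp upstream of another 5' end, with a score of 578 and a signal of 58.2. Its replicate values were 26.8 and 26.1 (26.5 ± 0.505, SD, n = 2).

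The authors' ranked list of both replicates, with 48276 peaks, takes in sites far under the cut. It had a promoter summit at 119 of the 273 receptor genes, 43.6%, beside 48.9% of all protein-coding genes. The replicates' own ranked lists put the order the other way. Replicate 1 had 135 receptor genes (49.5%) beside 46.2% of all genes, and replicate 2 had 131 (48.0%) beside 44.9%. The share of receptor genes with a peak was thus below that of all genes in 1 list and above it in 2, and no direction held across the lists.

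Where a peak was present, the combined signal at receptor genes was slightly above that of all genes, and the replicates' own lists gave no common direction. The strongest ranked promoter peak had a median signal of 33.6 over the 119 receptor genes (range 4.63 at nhr-211 to 115 at nhr-68), beside 29.9 over all 9774 genes with a peak (range 2.08 to 318). In the own ranked list of replicate 1 the medians were 15.8 at receptor genes and 16.2 at all genes. In that of replicate 2 they were 19.2 and 18.8. Only 6 of the 119 strongest peaks scored 830 or more (5.04%, beside 5.46% of all genes with a peak). A further 106 scored under 540 (89.1%, beside 91.0% of all genes with a peak).

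Peaks of like signal could differ widely in score. Beside each peak the ranked list gives a pair of signals from single peak sets, in columns that carry no replicate number, and these differed more than 2-fold at 12 of 119 receptor promoters (10.1%), beside 13.2% of all genes. An example is nhr-8, needed for cholesterol balance and toxin resistance, whose peak of 55.7 had 15.8 in replicate 1 and 37.7 in replicate 2 (26.7 ± 15.5, SD, n = 2) and a score of 193. The nhr-88 promoter had nearly the same signal, 55.6, with 29.9 and 30.0 in the replicates (29.9 ± 0.0784, SD, n = 2), and a score of 770. The largest gap was at nhr-232, with 10.2 in replicate 1 and 36.1 in replicate 2 (23.1 ± 18.3, SD, n = 2) and a score of 53. Across the 119 receptor promoters the paired columns correlated with r = 0.570 (Pearson) and rho = 0.366 (Spearman), and across all 9774 genes with 0.663 and 0.343. These points share 2 libraries and are given as a description.

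**Figure D2:**
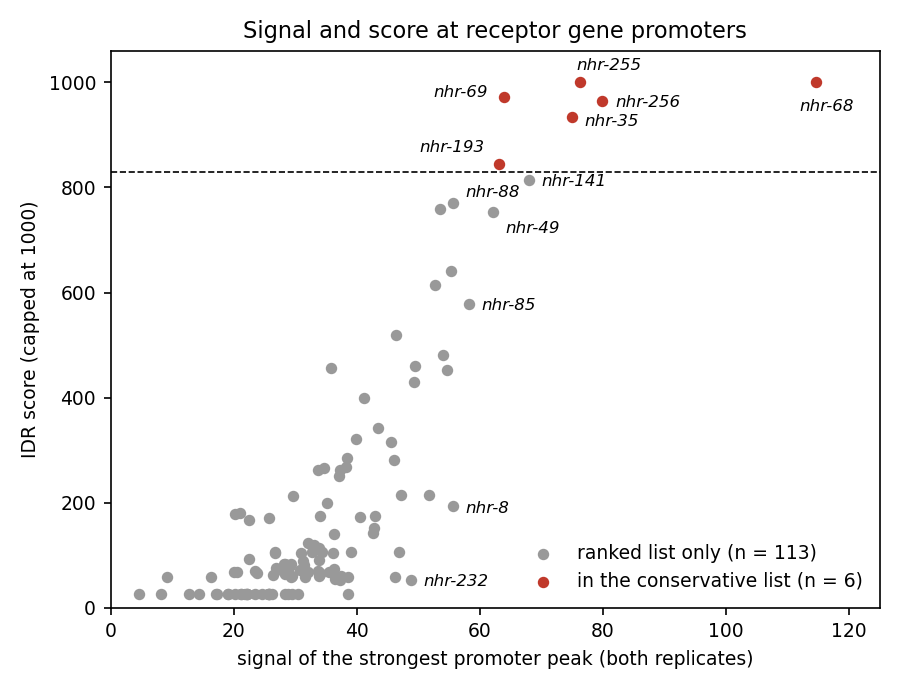
IDR score (vertical axis, capped at 1000) against combined signal (horizontal axis) for the strongest promoter peak of each of 119 receptor genes, with the 6 of the conservative list in red and the others in grey. The dashed line is the lowest conservative score, 830. The nhr-8 and nhr-88 peaks have signals of 55.7 and 55.6 but scores of 193 and 770.

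Replicate 2 was higher than replicate 1 at most receptor promoters that both replicates' own ranked lists covered. In the paired columns of the ranked list, which carry no replicate number, the second was the higher at 68.1% of receptor genes and 64.9% of all genes. The cause of the difference was not tested. At the 71 receptor promoters where both replicates' own ranked lists held an overlapping peak, replicate 2 was the higher at 48 (67.6%). The medians there were 17.6 in replicate 1 and 20.9 in replicate 2. At 69 of these 71 the paired columns held the same values as the own lists. The 68.1% and the 67.6% are therefore not separate results. Among the 15 strongest receptor promoters outside the conservative list replicate 2 was the higher at 13. That count was not made for all genes picked in the same way, so it cannot be read as a trait of receptor genes. Combined signals of the 15 ran from 47.2 at nhr-57 to 68.0 at nhr-141, and their scores from 53 to 815. Values were 10.2 to 32.6 in replicate 1 and 22.0 to 39.1 in replicate 2, so the ranges of the replicates overlapped. The values come from each replicate's own list, with medians over all genes of 16.2 in replicate 1 and 18.8 in replicate 2. Each SD of 2 replicates above includes any such difference between the lists.

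Receptors were next grouped by known role. The groups overlap, were picked with earlier results of these data known and cover 29 of the 273 genes. Their counts stand beside 48.9% of all genes with a ranked promoter peak and 2.68% bound, and no difference between groups was tested. Mean promoter windows were 2526 bp in the metabolism group and 3351 bp in the moulting group, against 1459 bp over all genes, and the part of window length was not tested. Of 12 receptors with a role in fat, sterol, vitamin B12 or propionate metabolism, 10 had a ranked promoter peak, with a median signal of 50.5, and 2 were bound (nhr-68 and nhr-69). Next to nhr-49 and nhr-8 stood nhr-66, a partner of NHR-49, with a signal of 54.6 and 32.6 and 22.0 in replicates 1 and 2 (27.3 ± 7.50, SD, n = 2). The nhr-114 gene, which protects the germline when vitamin B12 is low, had 46.3, with 26.4 and 24.8 in the replicates. The nhr-80 gene, a regulator of fatty acid desaturases, had 41.1, with 24.9 and 22.6. Signals were 40.5 at nhr-76, 39.1 at daf-12 and 26.7 at nhr-62, which is needed for lifespan extension by dietary restriction. The nhr-10 and nhr-13 promoters held no ranked peak. NHR-10 acts together with NHR-68, whose gene had the strongest promoter peak, one shared with H12C20.7.

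A further group was 14 receptors with clear relatives in insects or vertebrates, without those related to HNF4 such as nhr-69. None was bound in the conservative list or in any of the 10 alternative settings, which draw on the same libraries. Beside 2.68% of all genes bound, 14 genes are too few to show a lack. A ranked promoter peak was present at 9, with a median signal of 38.4 and a highest of 58.2 at nhr-85. Those next in order were nhr-8 (55.7), daf-12 (39.1), unc-55 (38.5), nhr-23 (38.4) and nhr-48 (35.5), followed by nhr-25 (28.3), nhr-6 (28.0) and nhr-91 (22.5). The DAF-12 receptor binds dafachronic acids and decides between dauer and reproductive growth. Its peak had a score of 106, with 13.5 in replicate 1 and 21.7 in replicate 2. The nhr-23 gene, the relative of ROR and of insect DHR3 that drives moulting, had a score of 285 with 19.7 and 22.2. The nhr-25 gene, the relative of Ftz-F1 that acts in moulting and epidermal development, had a score of 26, with 21.0 in replicate 1 and 9.64 in replicate 2. No ranked promoter peak was present at nhr-67, the relative of insect tailless, at fax-1, at nhr-111, at nhr-239 or at sex-1, which counts X chromosomes in sex determination.

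The smaller groups held peaks below the cut alone, apart from genes with none. Of 6 moulting and development receptors 5 had a ranked peak (median signal 38.4), and 0 were bound. Of 6 receptors of the xenobiotic, pathogen, iron and hypoxia responses 5 had one (median 47.2), among them nhr-57, a gene induced by low oxygen, with 47.2 and replicate values of 16.3 and 25.8. The others were nhr-49, nhr-8, nhr-86 (29.2) and nhr-14 (22.1), and nhr-45 had none. Of 4 receptors that set neuron identity 1 had a peak, unc-55, the relative of COUP-TF that specifies motor neuron synapses, with a score of 26. The olfactory receptor neuron gene odr-7 had none.

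Taken over all 5 groups, 20 of 29 receptors had a ranked promoter peak (69.0%, median signal 39.8), beside 99 of the 244 in no group (40.6%, median 32.1). The grouped genes also had more annotated 5' ends, with a mean of 2.52 a gene against 1.61, and so a longer promoter window, with a mean of 2025 bp against 1452 bp. They were on chromosome V in 20.7% of cases against 66.0%. The part of chromosome in the difference was not tested either.

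**Figure D3:**
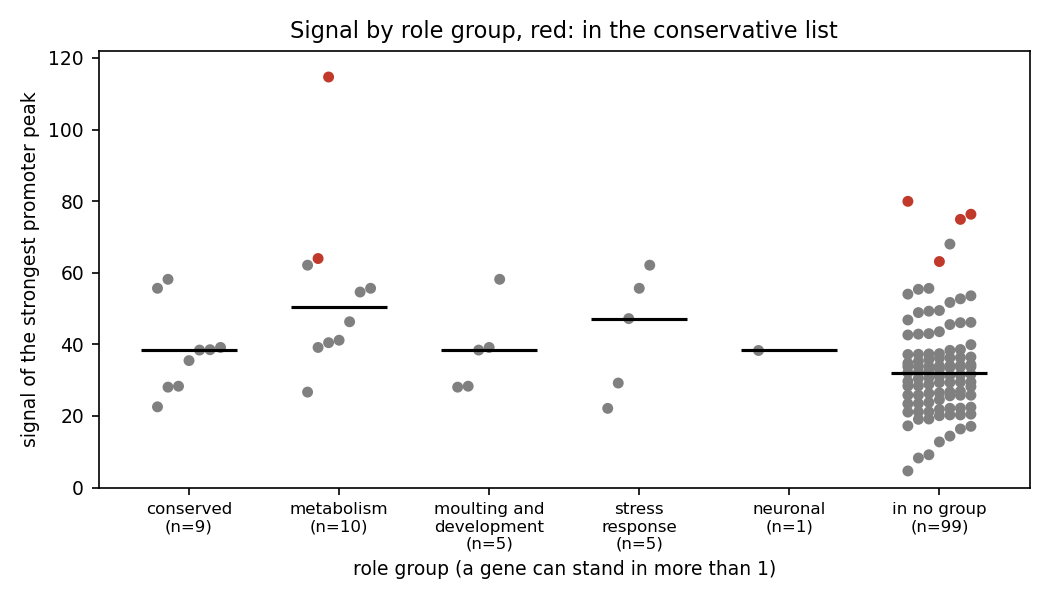
Combined signal of the strongest ranked promoter peak for the receptors of each role group and for the receptors in no group, with 1 point a gene, the median as a line and genes of the conservative list in red. The metabolism group has the highest median, 50.5 over 10 genes, and the receptors in no group have 32.1 over 99.

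Most receptor genes lie on chromosome V, where a smaller share of all protein-coding genes held a promoter peak. Chromosome V held 167 of the 273 (61.2%), beside 4994 of the 19973 protein-coding genes. There, 3 of 167 receptor genes were bound (1.80%), beside 1.64% of all genes of the chromosome, and 65 had a ranked peak (38.9%), beside 41.5%. On the other chromosomes 3 of 106 receptor genes were bound (2.83%), beside 3.02%, and 54 had a ranked peak (50.9%), beside 51.4%. When the share of all genes was weighted by where receptor genes lie, it came to 45.1% with a ranked peak and 2.15% bound, next to 43.6% and 2.20% for the receptor genes. The arms of chromosome V alone held 111 receptor genes, of which 2 were bound, nhr-256 and nhr-193 (1.80% beside 1.05% of all genes there). The middle 50% of its length held nhr-68, 1 of 56 receptor genes (1.79% beside 2.17%). The X chromosome had 2 bound genes of 27, nhr-35 and nhr-255 (7.41% beside 3.70% of all genes), and chromosome I had 1 of 24, nhr-69 (4.17% beside 2.68%). No receptor gene on II, III or IV was bound, where there were 15, 8 and 32, beside 3.16%, 3.37% and 2.35% of all genes. These small counts were not tested against the share of all genes.

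**Figure D4:**
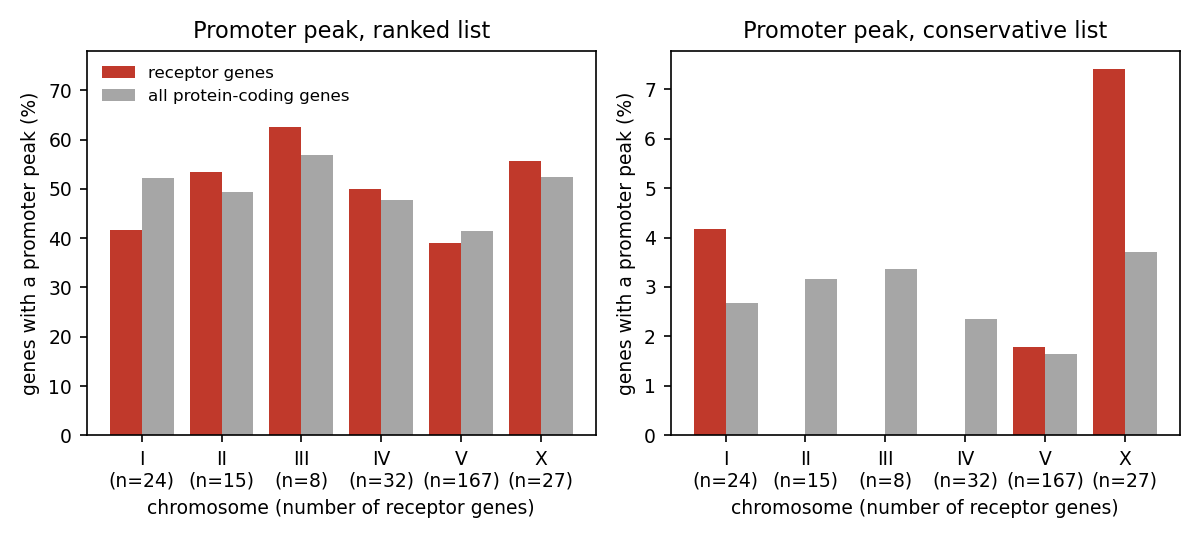
Share of receptor genes (red) and of all protein-coding genes (grey) with a promoter summit in the ranked list (left) and the conservative list (right), by chromosome. On V, with 167 receptor genes, the shares are 38.9% and 41.5% on the left and 1.80% and 1.64% on the right. The red bars on the right stand for 1, 3 and 2 genes on I, V and X.

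Of the 6 bound genes, nhr-68 and nhr-69 had 1 other receptor gene within 20 kb each, and the other 4 had 0. The same count was not made for all receptor genes, so it does not show whether bound ones are more isolated. The nhr-101 gene, 0.891 kb from nhr-68, had a ranked promoter peak of 25.8 with a score of 26. The nhr-255 gene lay 25.7 kb from nhr-48.

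The distance from the strongest summit to the nearest 5' end was taken at the 119 receptor promoters with a ranked peak. The promoter window, 1000 bp upstream to 200 bp downstream, bounds every such distance. The median was 257 bp, beside 321.5 bp for all genes with a peak, and 58 lay within 250 bp (48.7% beside 44.1%). The part of the number of 5' ends in these distances was not tested. From 200 bp upstream to the 5' end there were 33 (27.7%), beside 20.6% of all genes. A further 19 lay downstream of it beside 18.7% of all genes, a lower share for the receptor genes. By annotation 74 of the 119 summits were intergenic. At 10 receptor genes the summit also fell in the promoter of another protein-coding gene. Neither count was made for all genes with a ranked peak, so neither can be read as a trait of receptor genes. All 119 peaks had the same width of 284 bp, as did 1043 of the 1069 conservative peaks, so width carried no information on the site. Receptor genes with a ranked peak had a mean of 2.13 annotated 5' ends and those without one 1.38, so a longer window was searched in the former (mean 1748 bp against 1331 bp).

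**Figure D5:**
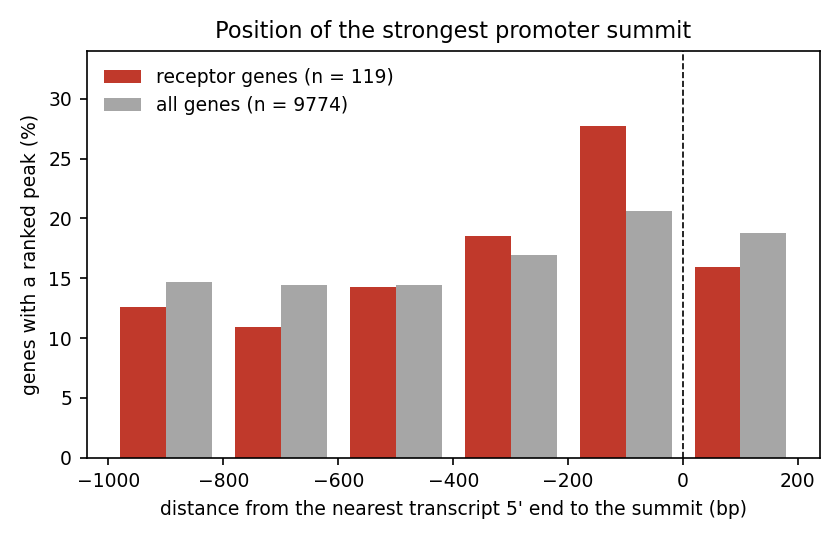
Distance from the nearest transcript 5' end (dashed line, negative is upstream) to the strongest promoter summit, as the share of 119 receptor genes (red) and of all 9774 genes with a ranked peak (grey), in bins of 200 bp. The bin next to the 5' end on the upstream side holds 27.7% of receptor genes and 20.6% of all genes.

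Beyond promoters, 4 receptor genes held a conservative summit in their gene body, all in introns. The strongest was in nhr-17, at X 12665118 to 12665401, with a signal of 136 and replicate values of 85.3 and 54.6. Its combined signal was above that of nhr-68, and its summit lay in a tRNA gene inside the intron. At nhr-27 a peak at X 12759660 to 12759943 had 100.3, with 42.7 in replicate 1 and 54.1 in replicate 2. At nhr-3 a peak at X 14560220 to 14560503 had 78.3, with 27.4 and 50.3, and the nhr-3 promoter also held a ranked peak of 54.0. At nhr-19 a peak at II 9603450 to 9603733 had 60.2, with 28.8 and 36.0. The last 3 summits were not within 500 bp of a tRNA, snRNA or snoRNA gene. Of the 4 genes 3 are on X, a count that was not set beside all genes. Genes with a conservative summit in the gene body but not in a promoter were 1.47% of receptor genes, beside 1.23% of all genes. With promoter and gene body together 10 receptor genes held a conservative summit (3.66%), beside 3.91% of all genes.

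None of the 6 bound receptor windows held the core AGGTCA on either strand within 75 bp of the summit. It was present in 10.2% of all 1069 conservative windows, so 6 windows are too few to show a lack of it. Of the 119 receptor windows of the ranked list 5 held it (4.20%), beside 5.05% of all genes with a ranked peak and 3.56% of equal windows centred 500 bp upstream of the first 5' end of each gene. The longer AAGGTCA, which contains it, was in 1 of the 119 (0.840%), beside 1.76%. The variant AGTTCA was in 2 of the 6 bound windows, nhr-68 among them, beside 7.30% of all conservative windows. Here and for the motifs below, 6 windows are too few to show a difference. AGTTCA was in 16 of 119 (13.4%), beside 9.12% of all genes with a ranked peak. Of the upstream windows, 10.4% of those of all genes and 12.5% of those of receptor genes held it. The GATA factor site TGATAA was in 2 of the 6, beside 22.7% of all conservative windows, and in 19 of the 119, beside 15.4% of all genes with a ranked peak and 14.3% upstream. The repeat GAGAGA was in 2 of the 6, nhr-68 and nhr-256, beside 26.4% of all conservative windows, and in 15.1% of the 119, beside 13.9% and 7.79%. A match says that these letters are in the window and nothing about what binds there.

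Other families of transcription factor genes were taken by name. Of 25 hlh- genes 1 was bound (4.0%), hlh-30, with a signal of 194, and of 63 ceh- and 19 tbx- genes 0 were, beside 2.68% of all genes. A ranked promoter peak was present at 36.0% of the hlh- genes, 49.2% of the ceh- genes and 15.8% of the tbx- genes, beside 48.9% of all genes, with median signals of 30.6, 27.7 and 21.1. Of 10 genes for receptor coregulators and for enzymes of dafachronic acid synthesis 6 had a ranked promoter peak and 1 was bound, cbp-1, the CBP and p300 histone acetyltransferase, with a signal of 166 and a score of 1000. The corepressor gene din-1, which acts with DAF-12, had 69.0 with a score of 739, below the cut. The P450 reductase gene emb-8 had 44.7, and daf-36, dhs-16 and strm-1 had 18.2 to 19.5. No ranked promoter peak was present at daf-9, which makes the DAF-12 ligand, at hsd-1, at gei-8 or at mdt-15, the Mediator subunit that works with NHR-49.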

How the data were processed

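Starting points were 7 of 8 peak lists on ce11 that the authors deposited: the conservative, ranked and thresholded lists of both replicates and each replicate's own ranked and thresholded list. Per the deposited notes, alignments of the replicates and of a control went into each. Names of the aligner and peak caller: not given in the sources used here. Score is the authors' deposited IDR score, capped at 1000. Signal is the deposited value of the peak caller, on an unstated scale. Receptor genes were set beside all genes within a list. Replicate means, SDs and statements of which replicate was higher set values of different lists side by side. Whether those lists share a scale was not known. Replicate values are those of the strongest peak in the replicate's own ranked list that overlaps by 1 bp. A further 6 signal columns were not used. Depth was unknown.

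Gene models were those of Ensembl release 115, with all annotated transcripts of protein-coding genes. Peaks lay inside the chromosome ends of the RefSeq sequence. Summits are 1-based. For each gene the peak with the highest signal in its promoters was used. The assignment was checked on simulated data. Python 3.11.15 with pandas 2.3.3 was used. Motif windows took 75 bp on either side of a summit. No test was run, as there was 1 group of 2 replicates.

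The gene family, role groups, motifs and comparison families were chosen with earlier results of these data known. Named genes were all bound receptors, the 15 next strongest and those of the role groups. Others, such as nhr-211, nhr-101 and the 4 genes with intronic peaks, were named after their values were seen. Tried as alternatives were other peak lists, promoters of 500 and 2000 bp, other assignment rules, a score of 1000, small RNA genes left out, 1 peak per pair of replicate peaks and windows of 50 and 100 bp. The sequence at the nhr-35 peak is not reported here.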

Additional observations from a re-analysis of the deposited data

How the results depend on the processing

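The count of receptor genes with a conservative promoter summit was 6. It was 1 in the thresholded list of either replicate alone, which is the lowest and the highest value with a replicate left out, and 2 at a score of 1000. In the other 7 alternatives it was 4 to 6. With a replicate left out, the share of all genes was 0.871% in the list of replicate 1 alone and 1.81% in that of replicate 2 alone, and at a score of 1000 it was 1.94%. All 6 genes were bound at promoters of 2000 bp (3.89% of all genes), with 1 bp of peak overlap (2.92%) and with 1 peak per pair of replicate peaks. The nhr-68 call was lost in 1 of 10 alternatives, nhr-35 and nhr-256 in 3, nhr-69 and nhr-255 in 4, and nhr-193 in 5. Receptor genes with a ranked promoter peak numbered 96 at 500 bp (35.2%, beside 36.9% of all genes) and 163 at 2000 bp (59.7% beside 64.0%), against 119 (43.6% beside 48.9%). With the nearest 5' end the order turned, at 42.9% beside 42.5%, and the cause was not tested. The median signal of these genes stayed between 32.2 and 33.7 in 6 alternatives. Windows of 50 and 100 bp held AGGTCA at 0 bound receptor genes, as did that of 75 bp. No paired analysis was possible because there was 1 group. The lists give no read depth, so limits set by depth could not be stated, and no control peak list was used here.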
